A study of Mus musculus with 4 samples.

Results

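Jun, Sox11 and Atf3 are transcription factor genes known for their response to nerve injury, and each was followed here as 1 transcript identifier: ENSMUST00000107094.2 for Jun, ENSMUST00000079063.7 for Sox11 and ENSMUST00000027941.14 for Atf3. These 3 transcripts were chosen by identifier from the 116912 listed in every table, with their reads and injury changes already known. The gene names come with that choice. No table used here pairs transcript identifiers with symbols, so other isoforms of the 3 genes, their partner factors and markers of cell types were not analysed here. RNA was taken from dorsal root ganglia, which hold the cell bodies of sensory neurons, of adult mice that were uninjured or 72 hours past a crush of the sciatic nerve with forceps. Bulk RNA was whole-lysate RNA of wild-type CD-1 mice, read with a direct RNA kit. RiboTag RNA was pulled down with an anti-HA antibody from mice of genotype RPL22HA+/+;Advillin-Cre+ (B6N.129-Rpl22tm1.1Psam/J crossed with B6.129P2-Aviltm2(cre)Fawa/J), in which Cre driven by the Advillin gene, active in sensory neurons, switches on an HA-tagged ribosomal protein, and was read with a PCR-amplified cDNA kit. Both RiboTag groups carry the tag and the Cre, and no RiboTag group lacked the Cre. Kit, strain, genotype, cell make-up and immunoprecipitation cannot be told apart between bulk and RiboTag RNA.

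Jun is a subunit of AP-1, a dimeric factor built from basic leucine zipper proteins, and is activated by the Jun N-terminal kinases that signal axon damage. Atf3 is a basic leucine zipper protein of the ATF/CREB family that can pair with Jun, is scarce in intact sensory neurons and is widely used as a marker of axotomised ones. Sox11 belongs to the SoxC group of high-mobility-group box factors, which act in neuronal differentiation and in axon growth.

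Each of the 4 groups had 1 sample. No value could therefore be checked against other animals, no test between groups was made, and intervals cover counting error only. Each library was deposited as 3 numbered columns whose origin is not given in the sources used here. They were not treated as replicates, because their totals lay closer together than independent Poisson counts would (one-sided chi-square test, p = 0.0159), and their mean was counted as 1 sample. A column held on average 592935 estimated reads in bulk RNA without injury and 529332 with it, and 207597 and 79334 in RiboTag RNA. Where no read is seen, as many as 3 are still possible, equal to 5.06 and 5.67 TPM in the bulk and 14.5 and 37.8 TPM in the RiboTag libraries. TPM here is reads scaled to a common column total with no division by length, so levels are compared between libraries and not between genes. In whole-ganglion RNA a change in the number of cells of a type and a change in RNA per cell cannot be told apart.

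The bases before the annotated starts of the 3 genes are shown because the transcripts were higher after injury in both assays and because Jun and Atf3 proteins themselves bind AP-1 and CRE sites. All 3 genes matched the RefSeq promoter table by symbol. The 250 bases before each start are printed 5′ to 3′ on the gene's strand, in GRCm38.p6, which is not the build named for the reads. Capitals mark a word that differs by at most 1 letter from the CRE site TGACGTCA, a search added after the promoters had been read.
Jun, chr4:95052223-95052472, minus strand: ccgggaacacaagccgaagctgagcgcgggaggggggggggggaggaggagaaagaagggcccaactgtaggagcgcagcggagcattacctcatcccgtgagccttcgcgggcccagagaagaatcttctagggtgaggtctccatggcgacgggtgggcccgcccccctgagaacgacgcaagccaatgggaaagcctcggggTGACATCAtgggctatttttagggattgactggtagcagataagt
Sox11, chr12:27342719-27342968, minus strand: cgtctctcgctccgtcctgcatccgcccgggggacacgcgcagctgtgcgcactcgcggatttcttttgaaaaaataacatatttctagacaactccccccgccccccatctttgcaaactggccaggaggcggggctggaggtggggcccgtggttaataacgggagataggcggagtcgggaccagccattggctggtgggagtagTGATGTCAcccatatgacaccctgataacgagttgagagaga
Atf3, chr1:191183334-191183583, minus strand: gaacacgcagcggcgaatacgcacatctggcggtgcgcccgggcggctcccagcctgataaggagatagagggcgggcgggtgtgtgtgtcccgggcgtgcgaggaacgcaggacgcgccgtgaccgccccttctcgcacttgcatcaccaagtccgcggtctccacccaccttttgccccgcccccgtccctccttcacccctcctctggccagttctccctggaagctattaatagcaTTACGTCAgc

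Each of the 3 windows held 1 such word, and 10.6% of the 32851 promoter windows of this length in the table held at least 1. The word of Jun, TGACATCA, lay 45 to 38 bases before the start, and that of Sox11, 42 to 35 bases before the start, is the same word read on the other strand (TGATGTCA). In all, 2.93% of windows held that word on either strand. The word of Atf3, TTACGTCA, lay 10 to 3 bases before the start and was held by 0.447% of windows. It contains the ATF/CREB core TGACG on the other strand, which 17.8% of windows held. The exact words TGACATCA and TTACGTCA were taken from the members' own windows, so their shares do not measure rarity. The search within 1 letter of the CRE site was added after these windows were read. Its match in all 3, beside 10.6% of windows, is therefore no test either. The exact CRE site (1.55% of windows), the AP-1 site TGANTCA (6.75%), the TATA box core TATAAA (12.4%) and the SOX core ACAAT (27.7%) were found in 0 of the 3 windows on either strand. The GC box GGGCGG, present in 32.7% of windows, occurred 1 time in Jun, 2 times in Sox11 and 5 times in Atf3, and 2 of those in Atf3 overlap. The windows held 61.2% (Jun), 58.0% (Sox11) and 65.2% (Atf3) G and C bases, against a median of 52.4% over the table, and GC-rich words are more frequent in such sequence. A match describes letters only.

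**Figure D1:**
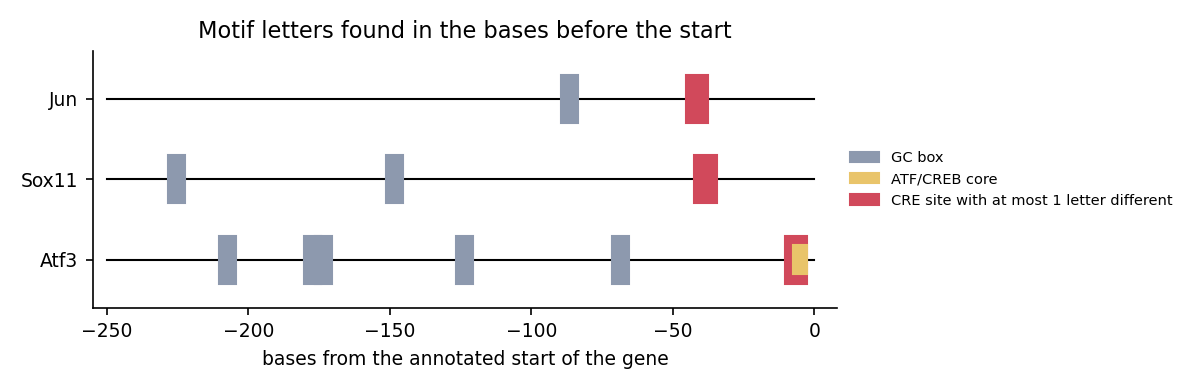
Words found on either strand in the 250 bases before the annotated start of Jun, Sox11 and Atf3, by distance from the start in bases (horizontal axis). Each gene holds 1 word within 1 letter of the CRE site (red), 45 to 38 bases before the start in Jun, 42 to 35 in Sox11 and 10 to 3 in Atf3; grey marks GC boxes and yellow the ATF/CREB core inside the Atf3 word.

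Atf3 was rare without injury and higher after it in both assays. In uninjured bulk RNA its columns held 7, 4 and 5 reads, a mean level of 9.0 TPM (exact Poisson 95% interval 2.74 to 19.7). In injured bulk RNA they held 191.8, 284.3 and 295 reads, a mean level of 486 TPM (428 to 549). Columns 1 (363 TPM) and 3 (557 TPM) lay outside that interval, which does not cover differences between columns. The injured columns all lay far above the uninjured ones. In uninjured RiboTag RNA the columns held 0, 2 and 1 reads, a mean level of 4.82 TPM (0.122 to 26.8), which is under the 3 reads possible where none is seen. In injured RiboTag RNA they held 19, 20 and 18 reads, a mean level of 240 TPM (144 to 374), where an unchanged level would have given 0.382 reads. The injured RiboTag columns were close together and did not overlap the uninjured ones.

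Sox11 was scarce without injury and higher after it in both assays. Uninjured bulk columns held 5, 4 and 5 reads, a mean level of 7.87 TPM (2.74 to 19.7). Injured bulk columns held 35, 30 and 26 reads, a mean level of 57.3 TPM (38.2 to 80.9). No injured column of bulk RNA came near the uninjured ones. Uninjured RiboTag columns held 8, 3 and 5 reads, a mean level of 25.7 TPM (7.82 to 56.2). Injured RiboTag columns held 46, 37 and 42 reads, a mean level of 525 TPM (382 to 716), where an unchanged level would have given 2.04 reads. Injured RiboTag RNA thus had more Sox11 reads than any other library although it had the fewest reads in total.

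Jun was read in every library and was higher after injury in both assays. Uninjured bulk columns held 44, 51 and 46.4 reads, a mean level of 79.5 TPM (58.2 to 105). Injured bulk columns held 126, 158 and 170.9 reads, a mean level of 287 TPM (243 to 337). The columns of the bulk libraries did not overlap. Uninjured RiboTag columns held 14, 10 and 19 reads, a mean level of 69.0 TPM (36.9 to 113). Injured RiboTag columns held 13, 16 and 18 reads, which in that shallower library is a mean level of 198 TPM (115 to 328), where an unchanged level would have given 5.48 reads. Raw Jun reads therefore overlapped between the RiboTag libraries, while on the TPM scale the injured columns (164 to 227 TPM) lay above the uninjured ones (48.2 to 91.5 TPM).

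**Figure D2:**
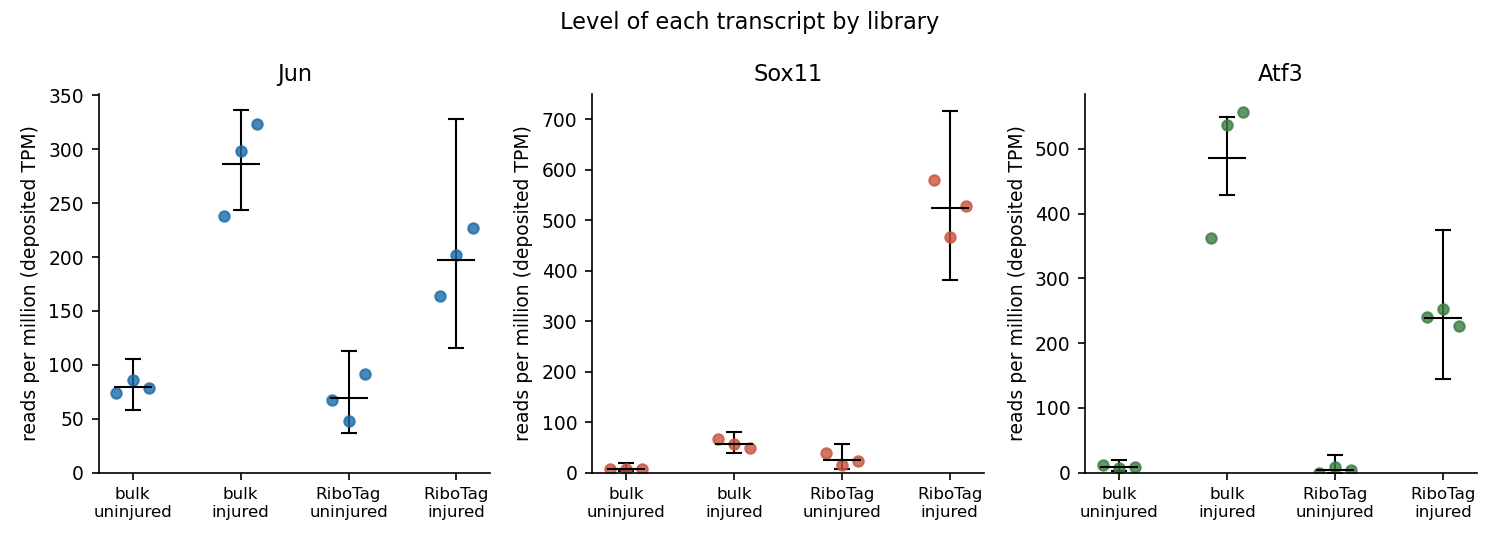
Level of each transcript (vertical axis, deposited TPM, not divided by length) in the 4 libraries (horizontal axis). Points are the 3 numbered columns of a library, which are not replicates, and bars give their mean with the exact Poisson 95% interval of its read count; in all 3 panels the injured columns lie above the uninjured columns of the same assay, and the vertical scales differ between panels.

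No difference between the columns of a library was detected at 0.001 for the 3 transcripts, with 1 exception. By a chi-square test of the 3 columns, the p-values were 0.0297 or higher in 11 of the 12 combinations of transcript and library, the lowest of these being Jun in injured bulk RNA. For comparison, the share of transcripts with 20 or more reads that differed between columns at 0.001 was 15.9% and 15.4% in bulk and 6.78% and 7.01% in RiboTag RNA, without and with injury. Several of the 12 combinations had means under 20 reads, down to 1 read for Atf3 in uninjured RiboTag RNA. There the test can detect little, and these shares are no like comparison. The exception was Atf3 in injured bulk RNA (chi-square 25 on 2 degrees of freedom, p = 3.81e-06), where column 1 was low. ENSMUST00000195117.2, listed 1 place after Atf3, held 65.2 reads in column 1 of that library and 0 reads in each of the other 11 columns. Summed, the pair held 257, 284.3 and 295 reads, and the same test over columns gave a chi-square of 2.73 (p = 0.255). This neighbour was singled out after its values were seen, and its gene is not named in the tables used here.

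Transcripts listed near the members were looked at for opposite changes, but few had enough reads to be counted. Among the 10 places before and the 10 after each member, 7 transcripts had any reads near Jun, 6 near Sox11 and 7 near Atf3. Of these 0 were counted as lower after injury in bulk or RiboTag RNA, and 1, the neighbour of Atf3 just described, was counted as higher in bulk RNA. Of these 20, 14 had under 20 reads in bulk and 19 in RiboTag RNA and could not be counted either way. ENSMUST00000064371.14, 2 places after Jun and picked out after its values were seen, had a mean of 48.6 reads in uninjured and 28.3 in injured bulk RNA, and 13.6 and 3.33 in RiboTag RNA. These are raw reads, and a RiboTag column held 207597 reads without injury but only 79334 with it. This transcript was counted neither as higher nor as lower in bulk RNA and had under 20 reads in RiboTag RNA.

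The injury comparison within bulk RNA asked how far each transcript changed in the whole ganglion. A transcript was counted as higher or lower where 2 libraries, each scaled to its total with 0.5 read added, differed 2-fold or more and the exact conditional binomial 95% interval excluded no change. All 3 of the 3 were counted as higher, and 5.21% of the 7739 transcripts with 20 or more reads were, while 4.55% were lower; the 3 were chosen with this change known. Atf3 was 49.5-fold higher, a log2 ratio of 5.63 (4.61 to 7.48). Sox11 was 6.68-fold higher, a log2 ratio of 2.74 (1.37 to 4.47), and Jun 3.58-fold higher, a log2 ratio of 1.84 (1.38 to 2.36). The median log2 ratio of the 3 was 2.74, beside 0.00 over all 7739. Atf3 and Sox11 would have passed 20 reads through the injured library alone. With a pseudocount of 5 reads their log2 ratios were 4.83 and 2.03.

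Over the 9 pairings of an injured with an uninjured column, the bulk log2 ratio ran from 4.84 to 6.20 for Atf3, from 2.43 to 3.15 for Sox11 and from 1.46 to 2.11 for Jun. All 3 injured columns lay above all 3 uninjured ones for each member, as they did for 10.3% of the transcripts with 20 or more reads. The members did not change alike in bulk RNA. The change of Atf3 exceeded that of Jun by 3.79 on the log2 scale (normal 95% interval from the counts 2.52 to 5.06). The change of Sox11 minus that of Atf3 was -2.89 (-4.68 to -1.10). The change of Sox11 minus that of Jun was 0.90 (-0.52 to 2.33), an interval that includes 0. Over the 5 quantities examined there were 15 such differences between members, and their intervals are not adjusted for that number.

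The same comparison in RiboTag RNA asked how far each transcript changed in RNA pulled down with the tagged ribosomes of Advillin-Cre neurons. As no group lacked the Cre, RNA carried over from other cells or not bound to ribosomes could not be measured. All 3 of the 3 were counted as higher, and 2.95% of the 1866 transcripts with 20 or more reads were, while 8.04% were lower; again this change was known when they were chosen. Atf3 was 34.0-fold higher, a log2 ratio of 5.09 (2.98 to 11), an estimate that rests on a mean of 1 read without injury. It reached the minimum exactly, with 20 reads over both libraries of which 19 were in the injured one, so it entered this count only because it is high there. Sox11 was 18.9-fold higher, a log2 ratio of 4.24 (3.12 to 6.15), and also passed the minimum through the injured library. Jun was 2.85-fold higher, a log2 ratio of 1.51 (0.45 to 2.73). The median log2 ratio of the 3 was 4.24, beside -0.21 over all 1866. With a pseudocount of 5 reads the log2 ratio was 3.39 for Atf3, 3.56 for Sox11 and 1.48 for Jun.

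Column pairings gave RiboTag log2 ratios of 4.27 to 6.75 for Atf3, 3.53 to 5.12 for Sox11 and 0.86 to 2.20 for Jun. On the TPM scale no column of the injured library overlapped one of the uninjured library for any member, and 10.1% of transcripts showed the same order. Sox11 changed more than Jun in RiboTag RNA, by 2.73 on the log2 scale (1.12 to 4.34), and Atf3 more than Jun by 3.58 (0.97 to 6.18). The difference of Sox11 from Atf3 was -0.85 (-3.55 to 1.86), with an interval that includes 0. A pair of transcripts that takes a large share of RiboTag reads sets the scale here. Without it in the totals the median over all transcripts was 0.01 in place of -0.21, and the log2 ratios were 5.31 for Atf3, 4.46 for Sox11 and 1.73 for Jun. Relative to the median over all transcripts with the full totals, the members stood 5.30, 4.45 and 1.72 higher in the same order.

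**Figure D3:**
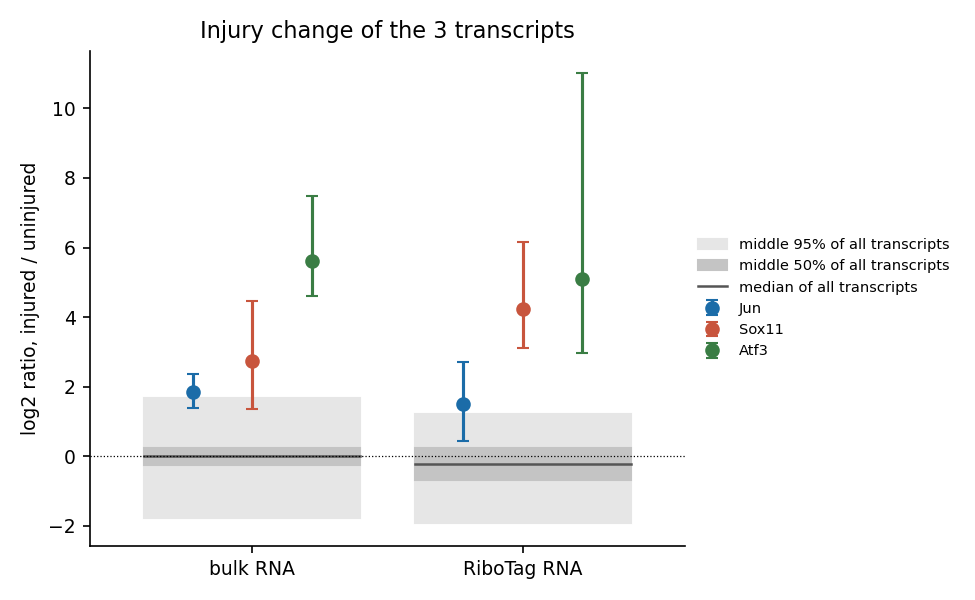
Log2 ratio of injured to uninjured RNA (vertical axis) in bulk and in RiboTag RNA. Points are the 3 transcripts with counting 95% intervals, light and dark grey show the middle 95% and 50% of all transcripts with 20 or more reads and the line their median; all 6 points lie above the light grey range, and the intervals of Jun in both assays and of Sox11 in bulk RNA reach into it.

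Both injury comparisons counted the 3 transcripts as higher, which held for 12 of the 1594 transcripts measured in both assays, 0.753%, the 3 included. The order of the point estimates was Atf3, Sox11, Jun in both assays, but with a pseudocount of 5 reads Sox11 (3.56) stood above Atf3 (3.39) in RiboTag RNA. The difference between neighbours in that order included 0 for Sox11 and Jun in bulk RNA, and for Atf3 and Sox11 in RiboTag RNA. The transcripts nearest to the median profile of the 3, by the Euclidean distance over the bulk change, the RiboTag change and the uninjured RiboTag to bulk ratio (all log2, over 4 libraries and 1594 transcripts), were ENSMUST00000024956.15 at a distance of 2.14 and ENSMUST00000240553.1 at 2.20. The members themselves lay at 1.86 (Sox11), 2.87 (Jun) and 3.02 (Atf3), so the 3 were not a tight group. ENSMUST00000024956.15 changed by 1.79 in bulk RNA and by 2.39 in the RiboTag libraries, and ENSMUST00000240553.1 by 1.89 and 2.35. Their genes are not named in the tables used here.

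**Figure D4:**
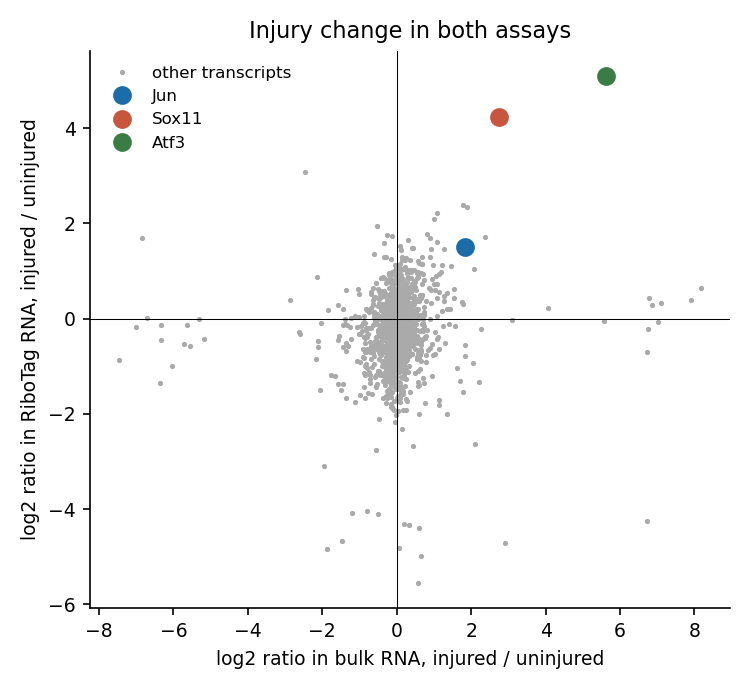
Log2 ratio of injured to uninjured RNA in bulk RNA (horizontal axis) and RiboTag RNA (vertical axis) for the 1594 transcripts that had at least 20 reads in bulk and 20 in RiboTag RNA. Atf3 (5.63 and 5.09) and Sox11 (2.74 and 4.24) lie apart at the upper right, while Jun (1.84 and 1.51) lies at the edge of the main cloud.

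The reads of the 3 transcripts were shared out differently among them after injury. Together they had 96.4 TPM in uninjured bulk, 829 TPM in injured bulk, 99.6 TPM in uninjured RiboTag and 962 TPM in injured RiboTag RNA. Of these reads Jun took 82.5% in uninjured bulk (exact binomial 95% interval 70.1% to 91.3%) and 34.5% in injured bulk RNA (30.2% to 39.3%). Its share was 69.4% (43.0% to 85.4%) in uninjured and 20.5% (12.5% to 31.9%) in injured RiboTag RNA. Jun thus had the lower share after injury in both assays, with intervals that do not overlap. The shares restate the reads of the injury comparisons, whose changes were known when the 3 were chosen, and are no separate evidence. Without injury the share of Sox11 was 8.17% in bulk (2.91% to 19.3%) and 25.8% in RiboTag RNA (8.22% to 47.2%), and that of Atf3 9.33% (2.91% to 19.3%) and 4.84% (0.12% to 23.8%). After injury the share of Sox11 was 6.91% in the bulk library (4.66% to 9.61%) but 54.6% in the RiboTag library (43.4% to 66.7%). The share of Atf3 was 58.5% in the bulk library (53.8% to 63.2%) but 24.9% in the RiboTag library (15.8% to 36.3%). Whether the shares shifted differently in the assays was not resolved: the injury change of the RiboTag to bulk ratio differed by 1.83 (-0.32 to 3.98) between Sox11 and Jun, by 2.04 (-1.20 to 5.28) between Sox11 and Atf3 and by -0.21 (-3.11 to 2.69) between Atf3 and Jun on the log2 scale. The transcripts differ in length, so only the change of a share between libraries is described.

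After injury the ratio of RiboTag to bulk RNA, by which the study asked about ribosome association, set Sox11 apart from Jun and Atf3. Without injury its differences from Jun (-0.05 to 3.76) and from Atf3 (-0.97 to 5.24) had intervals that include 0. Bulk RNA holds all cells of the ganglion, while the pulldown targets Advillin-Cre neurons. Cell make-up and ribosome association therefore cannot be told apart in this ratio. These ratios share the libraries of the injury comparisons and are no separate evidence. After injury Sox11 was 9.12-fold higher in RiboTag than in bulk RNA, a log2 ratio of 3.19 (2.51 to 3.95), with 41.7 reads where equal levels would have given 4.55. Jun had 15.7 reads where equal levels would have given 22.7, a log2 ratio of -0.50 (-1.35 to 0.24). Atf3 had 19 reads where equal levels would have given 38.5, a log2 ratio of -0.99 (-1.78 to -0.35), just short of 2-fold. Of the 3, 1 was counted as higher and 0 as lower, beside 7.69% and 36.0% of the 5045 transcripts measured. The median over those transcripts was -1.25. Relative to it all 3 stood higher, by 4.44 for Sox11, 0.75 for Jun and 0.26 for Atf3.

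The log2 ratio of Sox11 after injury exceeded that of Jun by 3.69 (2.69 to 4.68) and that of Atf3 by 4.18 (3.23 to 5.12). Atf3 minus Jun was -0.49 (-1.48 to 0.51). With the dominant pair left out of the totals, which moves RiboTag levels up by a common factor, the ratio was 0.26 (-0.59 to 0.996) for Jun and -0.23 (-1.02 to 0.41) for Atf3, so neither has a settled direction between the assays. Differences between members do not depend on that scaling. Atf3 was counted as lower when its list neighbour was added, at -1.10 (-1.89 to -0.47), and when column 1 was left out, at -1.16 (-1.95 to -0.53). It was also counted as lower when columns were summed, at -1.01 (-1.43 to -0.63). The summed interval takes the columns as independent reads and may be too narrow.

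Without injury the ratios were poorly resolved. Jun had a log2 ratio of -0.17 (-1.21 to 0.65), beside a median of -0.99 over 6174 transcripts, and was counted neither as higher nor as lower; 14.5% of transcripts were counted as higher and 44.1% as lower. Sox11 had a mean of 5.33 RiboTag and 4.67 bulk reads, under the minimum of 20, and a log2 ratio of 1.69 (-0.61 to 3.63). Atf3 had 1 and 5.33 reads, and a log2 ratio of -0.45 (-6.37 to 2.35). A difference between the assays was not detectable at this depth for any of the 3. Sox11 was counted as higher in RiboTag RNA with the columns summed, at 1.70 (0.58 to 2.85), or without column 3, at 1.78 (0.02 to 4.37). The summed interval takes the columns as independent reads and may be too narrow.

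**Figure D5:**
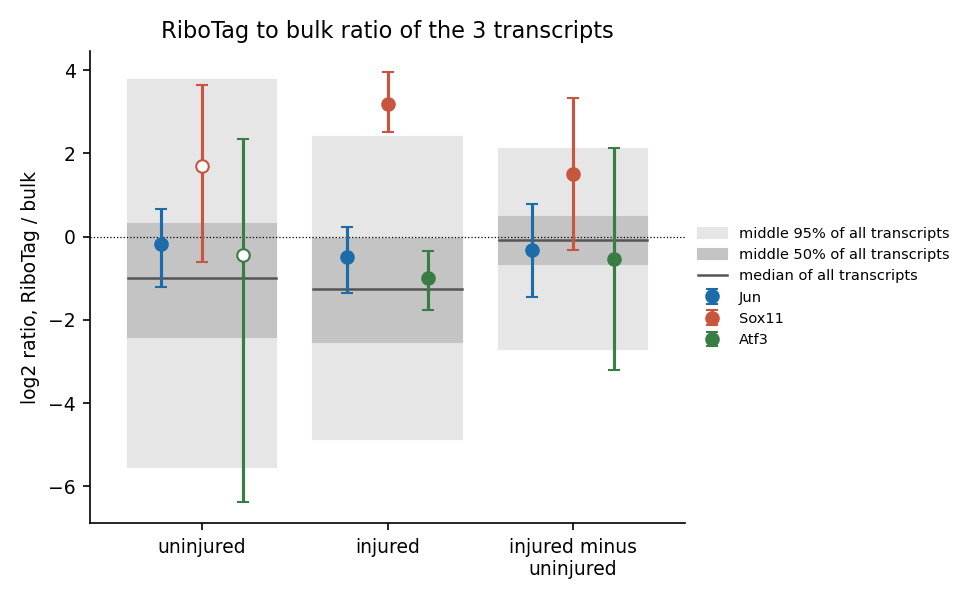
Log2 ratio of RiboTag to bulk RNA without injury, after injury, and the second minus the first (vertical axis), with 95% counting intervals. Open points had under 20 reads, grey bands show the middle 95% and 50% of all transcripts measured; after injury Sox11 (3.19) lies above the light band, and in the difference all 3 intervals include 0.

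After nerve injury, a shift in this ratio was not detectable at this depth for any member. The estimated shift was 1.5 (-0.33 to 3.34) for Sox11, -0.33 (-1.45 to 0.79) for Jun and -0.54 (-3.21 to 2.13) for Atf3 on the log2 scale. None of the 3 was counted as changed, beside 2.63% of 4905 transcripts counted as higher and 3.61% as lower, and the median over all was -0.07. As a fold, the interval for Jun ran from 0.367 to 1.73 and that for Sox11 from 0.793 to 10.1. With the columns summed, which triples the reads, Sox11 was counted as higher at 1.49 (0.40 to 2.58). Summing takes the columns as independent reads, which was not shown, so that interval may be too narrow.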

How the data were processed

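Estimated counts of reads per transcript and TPM values were deposited by the authors, with 3 numbered columns of each per library, per the file headers. Minimap2, Salmon and the builds GRCm39 and mm39 are named in the submitters' processing notes; their versions, their settings, the annotation and how the columns arose were not given in the sources used here. The deposited TPM equalled the estimated count over its column total, to within 0.0499% from 1 read upward. Column means were compared with Python 3.11.15 and scipy 1.17.1 as described with the results, counts being rounded to whole numbers for intervals. The ratio change needed 20 reads in all and 5 in each assay. Alternatives were edgeR 4.0.16 (TMM) and DESeq2 1.42.0 size factors, other totals, pseudocounts, read minimums, summed columns and columns left out; the sum with the neighbour of Atf3 was added later. Named are the 3 members, given by identifier, and the 2 transcripts then found nearest to their median profile; lists of partner genes and cell type markers could not be matched to identifiers. Members and lists were chosen with earlier results of these data known. Reads carry no molecular identifiers, so intervals and floors cover counting error only.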

Additional observations from a re-analysis of the deposited data

How the results depend on the processing

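Of 163 values of the 3 transcripts under other settings, 161 stayed within the counting interval of the main value. Of the 163, 0 changed sign from a counted value, and 2 moved. Both were in the injured RiboTag to bulk ratio without the dominant pair (0.26 for Jun, -0.23 for Atf3). Other read minimums only select transcripts, so values under them could not move. Some main intervals are too wide to leave easily, such as -6.37 to 2.35 for the uninjured ratio of Atf3. The pseudocount does not enter the exact intervals. The count of 161 is therefore no measure of robustness by itself. The injury log2 ratio ran from 4.83 to 6.02 (Atf3), 2.03 to 2.89 (Sox11) and 1.73 to 1.91 (Jun) in bulk RNA. In RiboTag RNA it ran from 3.39 to 5.43, 3.56 to 4.54 and 1.30 to 1.73. Each stayed counted as higher wherever it had a value. With 50 reads required, the 3 had no RiboTag injury value, Sox11 no bulk value, and Sox11 and Atf3 no uninjured ratio; without column 2, Atf3 had no RiboTag value. Counts over all transcripts moved by over 1.5 times in these cases (higher, then lower). Bulk injury had 403 and 352, with 1006 and 1065 summed, 183 and 133 at 50 reads, and 795 and 787 with no minimum. RiboTag injury had 55 and 150, with 89 and 85 without the pair, 300.0 and 746 summed, 15 and 71 at 50 reads, 239 higher with no minimum, and 57 lower at a pseudocount of 5. The uninjured ratio had 894 and 2723, with 1908 and 5202 summed, 398 and 1529 at 50 reads, and 2166 higher with no minimum. The injured ratio had 388 and 1814, with 679 and 892 without the pair, 1090.0 and 4040.0 summed, 173 higher at 50 reads, 1361 higher with no minimum, and 753 lower at a pseudocount of 5. The ratio change had 129 and 177, with 707 and 689 summed, and 85 and 34 at a pseudocount of 5. It had 194 higher without the pair or without column 1, and 296 higher with no minimum. Summing and the read minimums by construction change which transcripts can be counted. Summing also narrows the intervals, because it takes the columns as independent reads. Leaving out the pair by construction shifts all ratios of a RiboTag comparison by a common amount. A larger pseudocount by construction moves the ratios of few reads most. The cause of the move without column 1 was not tested. No paired analysis was possible because each group has 1 sample.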
